A study of Homo sapiens with 4 samples.

Results

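The genes described here are the protein-coding members of the 4 human HOX clusters, taken as every gene whose symbol is HOXA, HOXB, HOXC or HOXD followed by a number. The annotation holds 39 such genes, and 34 of them were listed in the deposited expression tables, among 27658 listed genes in all. The cells were PC-3 and DU145, human prostate cancer cell lines, each exposed for 48 h either to OICR-9429 or to DMSO. The compound, OICR-9429, occupies the pocket of WDR5 in which MLL proteins sit, and DMSO served as its solvent control. PC-3 cells in RPMI medium received 150 µM, and DU145 cells in DMEM received 120 µM, so the lines differed in dose and in medium as well as in origin. Each of the 4 groups (PC-3 with OICR-9429, PC-3 with DMSO, DU145 with OICR-9429, DU145 with DMSO) was 1 library of total RNA sequenced as paired 100 bp reads. Each line is a long-passaged culture from 1 patient, and no group had a replicate, so nothing below measures the spread between cultures.

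HOX genes encode homeodomain transcription factors that give cells of the embryo their position along the body axis. In each cluster the genes lie side by side in the order of their numbers, low numbers (anterior) being switched on earlier and nearer the head, and high numbers (posterior) later and nearer the tail. In mice the posterior genes Hoxa13, Hoxd13 and Hoxb13 act in the urogenital sinus, from which the prostate arises, and HOXB13 stays on in adult prostate epithelium. HOX chromatin is held active by MLL methyltransferase complexes, of which WDR5 is a subunit and which methylate histone H3 (the mark H3K4me), and held silent by Polycomb complexes.

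The 4 libraries held 55181000 to 58623000 reads, read back from the steps of the CPM values (counts per 1 000 000 reads) and rounded. At that depth 3 fragments (read pairs) correspond to 0.102 to 0.109 CPM. The epithelial keratins KRT8 and KRT18 were present in all 4 libraries, at 78.8 to 562 CPM. Of the luminal prostate genes, KLK3 and KLK2 were not listed in either line. CTNNA1, known to be deleted in PC-3, stood at 3.45 CPM with OICR-9429 and 2.73 CPM with DMSO in PC-3, against 656 CPM with OICR-9429 and 499 CPM with DMSO in DU145, so the line labels held.

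The start regions of 4 HOXA genes named in the results below are shown first. Expression was not tested against these sequences. HOXA9, HOXA11 and HOXA13 were the 3 HOX genes that passed the limma test as higher in PC-3 than in DU145 on the deposited scale, and HOXA2 was the one HOX gene lower by at least 2-fold with OICR-9429 in DU145. Each run covers 250 bases before to 50 bases after the RefSeq start on GRCh38.p14, read 5′ to 3′ on the minus strand, along which all HOXA genes are transcribed. Capitals mark 4 motifs searched on both strands: the TATA box as TATAAA, the CCAAT box as CCAAT, the E-box as CACGTG, and the PBX-HOX type of site as TGATTNAT. The windows lie at chr7:27165488-27165787 for HOXA9, chr7:27185183-27185482 for HOXA11, chr7:27200042-27200341 for HOXA13 and chr7:27102634-27102933 for HOXA2.
HOXA9: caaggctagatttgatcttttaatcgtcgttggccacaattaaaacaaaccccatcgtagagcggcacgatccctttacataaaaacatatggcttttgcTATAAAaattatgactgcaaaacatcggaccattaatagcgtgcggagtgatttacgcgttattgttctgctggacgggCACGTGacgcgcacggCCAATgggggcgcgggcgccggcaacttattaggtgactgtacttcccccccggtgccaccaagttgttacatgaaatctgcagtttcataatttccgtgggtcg
HOXA11: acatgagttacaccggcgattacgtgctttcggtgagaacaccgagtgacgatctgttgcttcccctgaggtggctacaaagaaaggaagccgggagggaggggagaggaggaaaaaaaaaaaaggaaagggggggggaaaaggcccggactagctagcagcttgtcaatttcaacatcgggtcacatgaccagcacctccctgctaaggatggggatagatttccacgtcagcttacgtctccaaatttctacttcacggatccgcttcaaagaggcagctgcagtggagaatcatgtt
HOXA13: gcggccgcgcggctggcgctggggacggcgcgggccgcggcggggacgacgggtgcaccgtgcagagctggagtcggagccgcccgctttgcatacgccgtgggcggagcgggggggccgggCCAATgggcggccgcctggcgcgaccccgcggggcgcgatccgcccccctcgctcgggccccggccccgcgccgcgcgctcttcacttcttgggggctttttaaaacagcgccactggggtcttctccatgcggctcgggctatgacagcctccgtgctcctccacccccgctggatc
HOXA2: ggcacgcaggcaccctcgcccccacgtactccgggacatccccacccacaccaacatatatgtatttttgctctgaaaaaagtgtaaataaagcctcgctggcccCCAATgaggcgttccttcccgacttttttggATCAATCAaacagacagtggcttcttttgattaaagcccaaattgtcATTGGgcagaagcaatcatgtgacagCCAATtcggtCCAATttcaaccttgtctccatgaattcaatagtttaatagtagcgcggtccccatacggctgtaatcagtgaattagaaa
The HOXA9 window held a TATA box, an E-box and a CCAAT box, and that of HOXA13 a CCAAT box alone. The HOXA11 window held none of the 4 motifs, and that of HOXA2 held 4 CCAAT boxes, one of them on the other strand, and 1 PBX-HOX type site on the other strand. No 2 matches overlapped. The RefSeq table gave a window for 20 of the 39 genes, with HOXC4 and HOXC5 sharing one. The CCAAT box was in 17 of these 20 windows, against 34.6% of all 35116 windows in the table. The E-box was in 8 of 20, against 7.26% of all windows, and the TATA box in 4 of 20, against 11.5%. The PBX-HOX type of site was in the windows of HOXA2 and HOXD11, against 2.82% of all windows. The median window held 22.5 CpG dinucleotides for the HOX genes, against 14 for all windows, at a median GC content of 58.0% and 58.7%. A motif match describes these letters alone.

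All 11 HOXA genes were listed in PC-3, and 10 in DU145, where HOXA4 was not listed. HOXB had 9 of 10 genes listed and HOXC 8 of 9. HOXD had 6 of 9 listed, the fewest of the clusters. Not listed in any table were HOXB1, HOXC12, HOXD4, HOXD11 and HOXD12. HOXA4, HOXB13, HOXD10 and HOXD13 were listed in PC-3 alone and HOXD1 in DU145 alone, which left 29 genes with values in both lines. That is 33 HOX genes listed in PC-3 and 30 in DU145. Over all 27658 listed genes, 23313 were listed in PC-3, 25338 in DU145 and 20993 in both. In every table a listed value of 1 step, taken as 0 reads, stood beside at least 10 reads in the same line's other library, so a gene with few reads in a line may have been left out. HOX genes at 1 CPM or more numbered 22 in each PC-3 library, against 26 with OICR-9429 and 27 with DMSO in DU145. In at least 1 library of the line, 23 HOX genes reached 1 CPM in PC-3 and 27 in DU145. Over all genes these counts were 14623 in PC-3 and 16120 in DU145.

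In PC-3 most HOX signal came from the posterior genes, and in DU145 less than that. Divided by exon length, genes 9 to 13 held 79.9% of all HOX signal in PC-3 with OICR-9429 and 75.4% with DMSO, against 40.0% with OICR-9429 and 46.0% with DMSO in DU145. HOXB13 alone gave 38.7% of the length-scaled HOX signal in PC-3 with OICR-9429 and 45.6% with DMSO. The order per kb in PC-3 began with HOXB13, HOXA9, HOXA13 and HOXB9 in both libraries. In DU145 it began with HOXB9, HOXB7, HOXB6, HOXC9 and HOXB5 in both libraries. HOXB9 stood at 16.4 CPM per kb with OICR-9429 and 28.6 CPM per kb with DMSO in DU145, and HOXB13 at 52.8 CPM per kb with OICR-9429 and 72.8 CPM per kb with DMSO in PC-3. In bulk RNA, fewer expressing cells and less RNA per cell cannot be told apart.

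**Figure D1:**
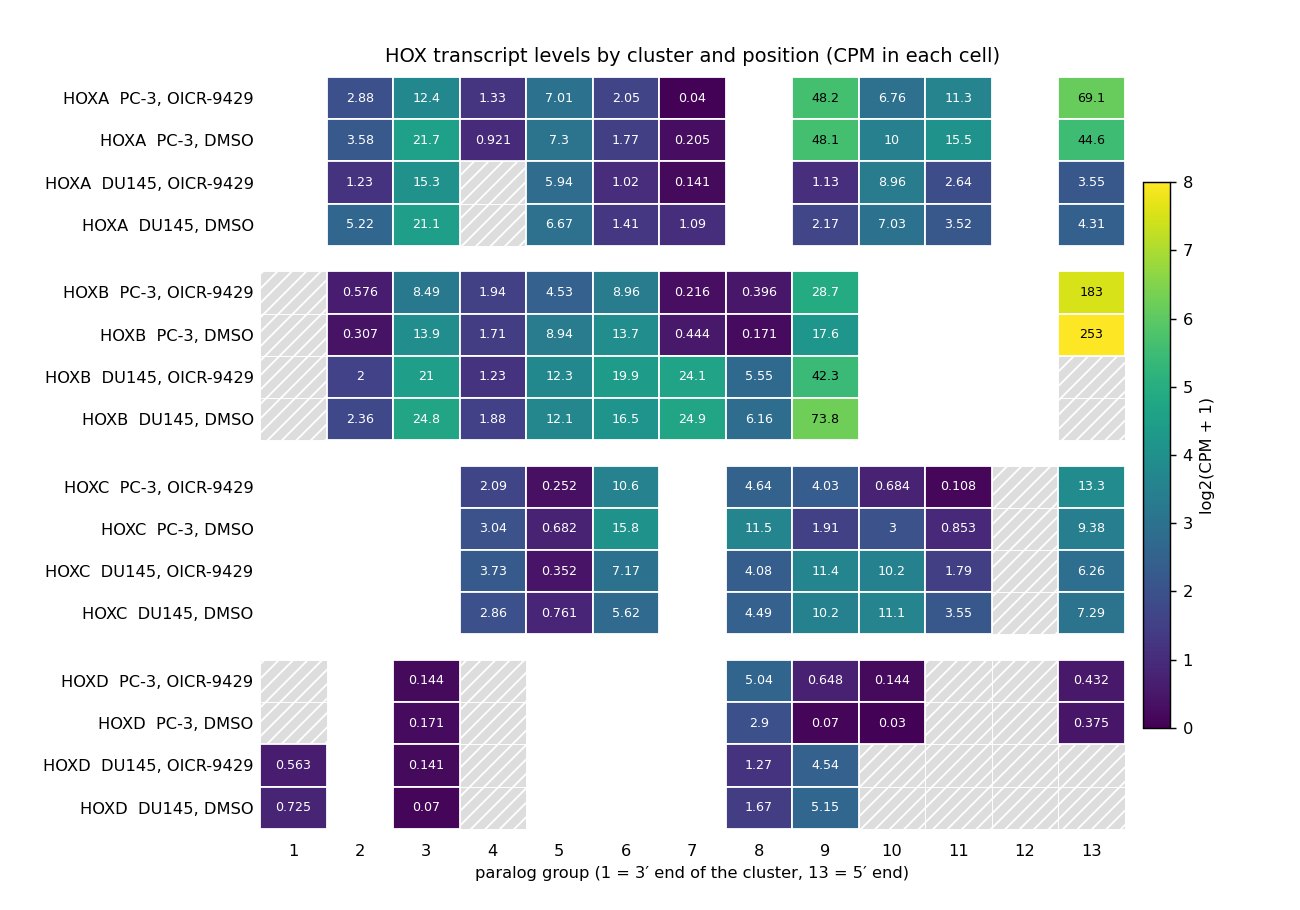
Levels of HOX cluster genes (blocks are clusters, columns are positions 1 to 13) in the 4 libraries, coloured by log2(CPM + 1) with the CPM printed in each cell. Hatched cells are genes not listed, and empty places hold no gene or a gene not shown. The highest PC-3 cells are HOXB13 (183 CPM with OICR-9429, 253 CPM with DMSO), HOXA13 and HOXA9, and the highest DU145 cells are HOXB9 (42.3 CPM with OICR-9429, 73.8 CPM with DMSO).

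Differences between the lines were tested with limma on log2(CPM + 1), fitted on line and treatment, over the 14976 genes that were above 1 CPM in at least 2 libraries and listed in all 4. With 4 libraries the model keeps 1 residual degree of freedom and takes its spread mostly from all genes, and the 2 libraries of a line are treated cells and their control, not replicate cultures. Among the 26 HOX genes tested, 12 differed at a Benjamini-Hochberg adjusted p under 0.05, 3 higher and 9 lower in PC-3. Over all tested genes 31.7% differed, 11.2% higher and 20.5% lower. At an unadjusted p under 0.05 there were 14 of 26, beside 42.5% of all genes. The 3 higher HOX genes, HOXA9, HOXA11 and HOXA13, were posterior HOXA genes, and the 9 lower ones were spread over the clusters. The split over all genes was 1680 higher and 3065 lower on the deposited scale, 2231 and 2050 after median-of-ratios scaling, and 2440 and 2344 after TMM scaling. That of the HOX genes was 3 and 9, 4 and 8, and 5 and 9, with HOXD8 added as higher under both scalings and HOXC6 under TMM. The median difference of the 26 HOX genes was -0.20 (log2), beside -0.21 for all tested genes.

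In its cluster, HOXA9, a gene activated in MLL-rearranged leukaemia, stood at 48.2 CPM with OICR-9429 and 48.1 CPM with DMSO in PC-3, against 1.13 CPM with OICR-9429 and 2.17 CPM with DMSO in DU145. Both PC-3 libraries were far above both DU145 libraries, by 4.24 ± 0.43 on the log2(CPM + 1) scale (limma, SE, adjusted p = 9.03e-06). HOXA13, which patterns the distal limb and the genital tubercle, stood at 69.1 CPM with OICR-9429 and 44.6 CPM with DMSO in PC-3, against 3.55 CPM with OICR-9429 and 4.31 CPM with DMSO in DU145. Its difference was 3.52 ± 0.41 (limma, adjusted p = 2.94e-05), again with no overlap of the lines. HOXA11, needed in mice for uterus and forelimb development, stood at 11.3 CPM with OICR-9429 and 15.5 CPM with DMSO in PC-3, against 2.64 CPM with OICR-9429 and 3.52 CPM with DMSO in DU145, a difference of 1.81 ± 0.43 (limma, adjusted p = 0.00573).

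HOXA10, between HOXA9 and HOXA11, did not share that pattern. It stood at 6.76 CPM with OICR-9429 and 10.0 CPM with DMSO in PC-3, against 8.96 CPM with OICR-9429 and 7.03 CPM with DMSO in DU145, so the lines overlapped (log2 difference 0.05 ± 0.44, limma, adjusted p = 0.946).

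HOXA3, HOXA5 and HOXA2 did not pass the test between lines. HOXA3, needed in mice for thymus and parathyroid development, stood at 12.4 CPM with OICR-9429 and 21.7 CPM with DMSO in PC-3, against 15.3 CPM with OICR-9429 and 21.1 CPM with DMSO in DU145. HOXA5, needed in mice for lung development, stood at 7.01 CPM with OICR-9429 and 7.30 CPM with DMSO in PC-3, against 5.94 CPM with OICR-9429 and 6.67 CPM with DMSO in DU145. HOXA2, a regulator of hindbrain and second arch identity, stood at 2.88 CPM with OICR-9429 and 3.58 CPM with DMSO in PC-3, against 1.23 CPM with OICR-9429 and 5.22 CPM with DMSO in DU145. HOXA3 and HOXA2 overlapped between the lines, and HOXA5 was slightly higher in both PC-3 libraries. The smallest adjusted p of the 3 was 0.784 (limma, HOXA2). HOXA6 stood at 2.05 CPM with OICR-9429 and 1.77 CPM with DMSO in PC-3, against 1.02 CPM with OICR-9429 and 1.41 CPM with DMSO in DU145. It was higher in both PC-3 libraries and did not pass either (limma, adjusted p = 0.424). HOXA4 stood at 1.33 CPM with OICR-9429 and 0.921 CPM with DMSO in PC-3. HOXA7 reached 1 CPM in DU145 with DMSO only, at 0.036 CPM with OICR-9429 and 0.205 CPM with DMSO in PC-3, against 0.141 CPM with OICR-9429 and 1.09 CPM with DMSO in DU145, and did not enter the test.

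The leading HOXB gene per length was HOXB13 in PC-3 and HOXB9 in DU145. HOXB13, a cofactor of androgen receptor binding in prostate cells, stood at 183 CPM with OICR-9429 and 253 CPM with DMSO in PC-3 and was not listed in DU145, so it has no test. PRAC1, the small gene beside HOXB13, was likewise listed in PC-3 alone, at 12.3 CPM with OICR-9429 and 11.4 CPM with DMSO. HOXB7 stood at 0.216 CPM with OICR-9429 and 0.444 CPM with DMSO in PC-3, against 24.1 CPM with OICR-9429 and 24.9 CPM with DMSO in DU145. It had the lowest difference of the HOX genes tested, -4.27 ± 0.42 (limma, adjusted p = 7.54e-06). HOXB8, next to it, stood at 0.396 CPM with OICR-9429 and 0.171 CPM with DMSO in PC-3, against 5.55 CPM with OICR-9429 and 6.16 CPM with DMSO in DU145 (log2 difference -2.42 ± 0.37, limma, adjusted p = 0.000292).

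The genes on either side of HOXB7 and HOXB8 were not at such low levels in PC-3. HOXB9 stood at 28.7 CPM with OICR-9429 and 17.6 CPM with DMSO in PC-3, against 42.3 CPM with OICR-9429 and 73.8 CPM with DMSO in DU145, a difference of -1.28 ± 0.38 (limma, adjusted p = 0.0214), a call lost under median-of-ratios scaling, edgeR, DESeq2 and a fit without treatment. HOXB6 stood at 8.96 CPM with OICR-9429 and 13.7 CPM with DMSO in PC-3, against 19.9 CPM with OICR-9429 and 16.5 CPM with DMSO in DU145. HOXB5 stood at 4.53 CPM with OICR-9429 and 8.94 CPM with DMSO in PC-3, against 12.3 CPM with OICR-9429 and 12.1 CPM with DMSO in DU145. For HOXB6 and HOXB5 both PC-3 libraries were below both DU145 libraries, yet the differences, -0.66 ± 0.42 and -0.83 ± 0.44, did not pass (limma, adjusted p = 0.245 and 0.168). HOXB3 stood at 8.49 CPM with OICR-9429 and 13.9 CPM with DMSO in PC-3, against 21.0 CPM with OICR-9429 and 24.8 CPM with DMSO in DU145 (log2 difference -1.0 ± 0.40, limma, adjusted p = 0.0706).

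HOXB2, a gene of the hindbrain in mice, was lower in PC-3. It stood at 0.576 CPM with OICR-9429 and 0.307 CPM with DMSO in PC-3, against 2.0 CPM with OICR-9429 and 2.36 CPM with DMSO in DU145 (log2 difference -1.15 ± 0.34, limma, adjusted p = 0.0215), a call lost under DESeq2. HOXB4, used to expand blood stem cells in culture, stood at 1.94 CPM with OICR-9429 and 1.71 CPM with DMSO in PC-3, against 1.23 CPM with OICR-9429 and 1.88 CPM with DMSO in DU145, where the lines overlapped.

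In HOXC, 3 neighbouring posterior genes were lower in PC-3. HOXC10, a gene of lumbar motor neurons in mice, stood at 0.684 CPM with OICR-9429 and 3.0 CPM with DMSO in PC-3, against 10.2 CPM with OICR-9429 and 11.1 CPM with DMSO in DU145 (log2 difference -2.17 ± 0.45, limma, adjusted p = 0.00236). HOXC9 stood at 4.03 CPM with OICR-9429 and 1.91 CPM with DMSO in PC-3, against 11.4 CPM with OICR-9429 and 10.2 CPM with DMSO in DU145 (log2 difference -1.62 ± 0.43, limma, adjusted p = 0.012). HOXC11 stood at 0.108 CPM with OICR-9429 and 0.853 CPM with DMSO in PC-3, against 1.79 CPM with OICR-9429 and 3.55 CPM with DMSO in DU145 (log2 difference -1.32 ± 0.34, limma, adjusted p = 0.0106), a call lost in a fit without treatment. For all 3 genes the lines did not overlap.

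The other listed HOXC genes passed no test between lines. HOXC13, required for hair and nail formation, stood at 13.3 CPM with OICR-9429 and 9.38 CPM with DMSO in PC-3, against 6.26 CPM with OICR-9429 and 7.29 CPM with DMSO in DU145. HOXC6, whose transcript is used in urine tests for prostate cancer, stood at 10.6 CPM with OICR-9429 and 15.8 CPM with DMSO in PC-3, against 7.17 CPM with OICR-9429 and 5.62 CPM with DMSO in DU145. Both genes were higher in both PC-3 libraries than in either DU145 library, with adjusted p values (limma) of 0.274 and 0.124. HOXC8 stood at 4.64 CPM with OICR-9429 and 11.5 CPM with DMSO in PC-3, against 4.08 CPM with OICR-9429 and 4.49 CPM with DMSO in DU145. HOXC4 stood at 2.09 CPM with OICR-9429 and 3.04 CPM with DMSO in PC-3, against 3.73 CPM with OICR-9429 and 2.86 CPM with DMSO in DU145. HOXC5 stayed under 1 CPM in all 4 libraries, at 0.252 to 0.761 CPM.

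HOXD was the cluster with the least RNA in both lines. Its summed level was 6.40 CPM with OICR-9429 and 3.55 CPM with DMSO in PC-3, against 6.50 CPM with OICR-9429 and 7.61 CPM with DMSO in DU145. HOXD8 led it in PC-3, at 5.04 CPM with OICR-9429 and 2.90 CPM with DMSO, against 1.27 CPM with OICR-9429 and 1.67 CPM with DMSO in DU145 (log2 difference 0.98 ± 0.40, limma, adjusted p = 0.078). HOXD9 led it in DU145 and was lower in PC-3, at 0.648 CPM with OICR-9429 and 0.068 CPM with DMSO in PC-3, against 4.54 CPM with OICR-9429 and 5.15 CPM with DMSO in DU145 (log2 difference -2.14 ± 0.38, limma, adjusted p = 0.000846). HOXD1, HOXD3, HOXD10 and HOXD13 stayed under 1 CPM wherever listed, between 0.034 and 0.725 CPM.

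**Figure D2:**
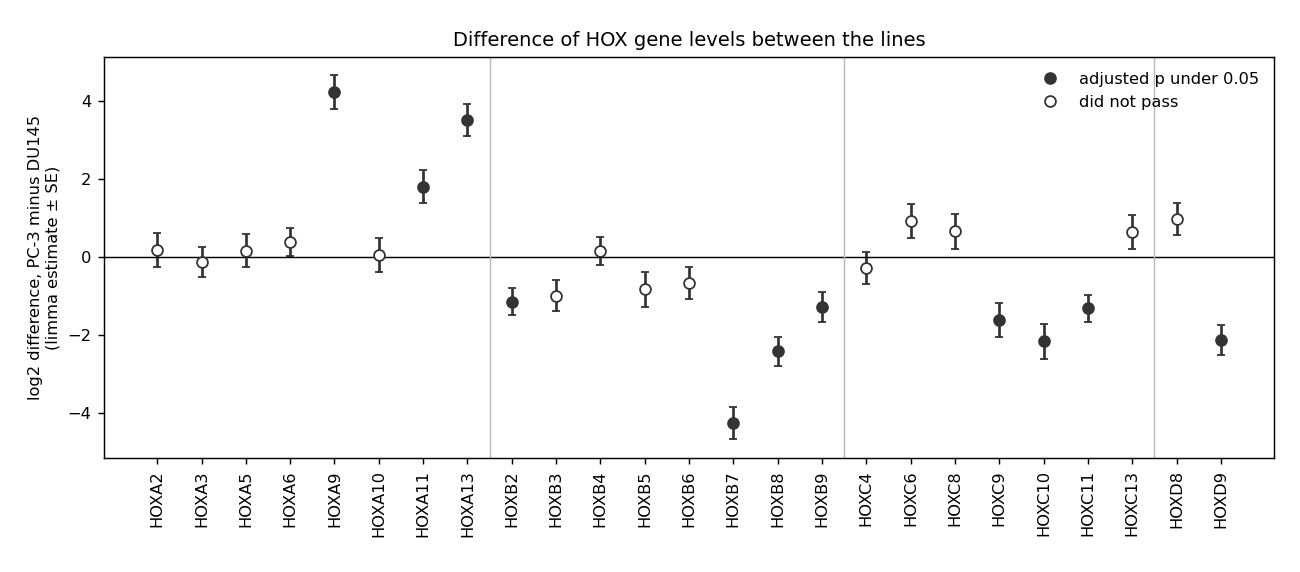
PC-3 minus DU145 difference on the log2(CPM + 1) scale for 25 of the 26 HOX genes tested, ordered by cluster and position, with bars for the SE from limma and filled points for adjusted p under 0.05. HOXA9 (4.24), HOXA13 (3.52) and HOXA11 (1.81) lie above 0, HOXB7 (-4.27) lies lowest, and 14 points are open.

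Genes at position 9 did not go together. HOXA9 was higher in PC-3, and HOXB9, HOXC9 and HOXD9 were lower. At position 13, HOXA13 was higher in PC-3 and HOXB13 was listed in PC-3 alone. HOXC13 was higher in both PC-3 libraries but did not pass the test. HOXD13 was listed in PC-3 alone, at 0.432 CPM with OICR-9429 and 0.375 CPM with DMSO.

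The effect of OICR-9429 was read within each line as the ratio of the 2 libraries, with an exact conditional binomial 95% interval over fragments. That interval covers counting error only, and 1 library a group allows no test. A gene was called past 2-fold where log2(CPM + 1) differed by at least 1 and the higher library reached 1 CPM. In PC-3, 23 HOX genes could be called and 2 were past 2-fold, both lower and both in HOXC, beside 15.8% of all genes. That is 0 of 23 higher, where 7.15% of all 14623 genes were higher, and 2 of 23 lower, where 8.68% were lower. In DU145, 27 HOX genes could be called and 1 was past 2-fold, lower with OICR-9429, beside 9.01% of all genes. That is 0 of 27 higher, where 0.999% of all 16120 genes were higher, and 1 of 27 lower, where 8.01% were lower.

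Those 3 genes were HOXC10, HOXC8 and HOXA2. HOXC10 in PC-3 (0.684 CPM with OICR-9429, 3.0 CPM with DMSO) had a ratio of 0.228 (0.131 to 0.377). HOXC8 in PC-3 (4.64 CPM with OICR-9429, 11.5 CPM with DMSO) had a ratio of 0.405 (0.328 to 0.497). HOXA2 in DU145 (1.23 CPM with OICR-9429, 5.22 CPM with DMSO) had a ratio of 0.236 (0.158 to 0.343). In the other line the same genes had intervals that held 1. HOXC10 had a ratio of 0.922 (0.783 to 1.09) and HOXC8 of 0.907 (0.698 to 1.18) in DU145, and HOXA2 had a ratio of 0.803 (0.593 to 1.09) in PC-3.

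**Figure D3:**
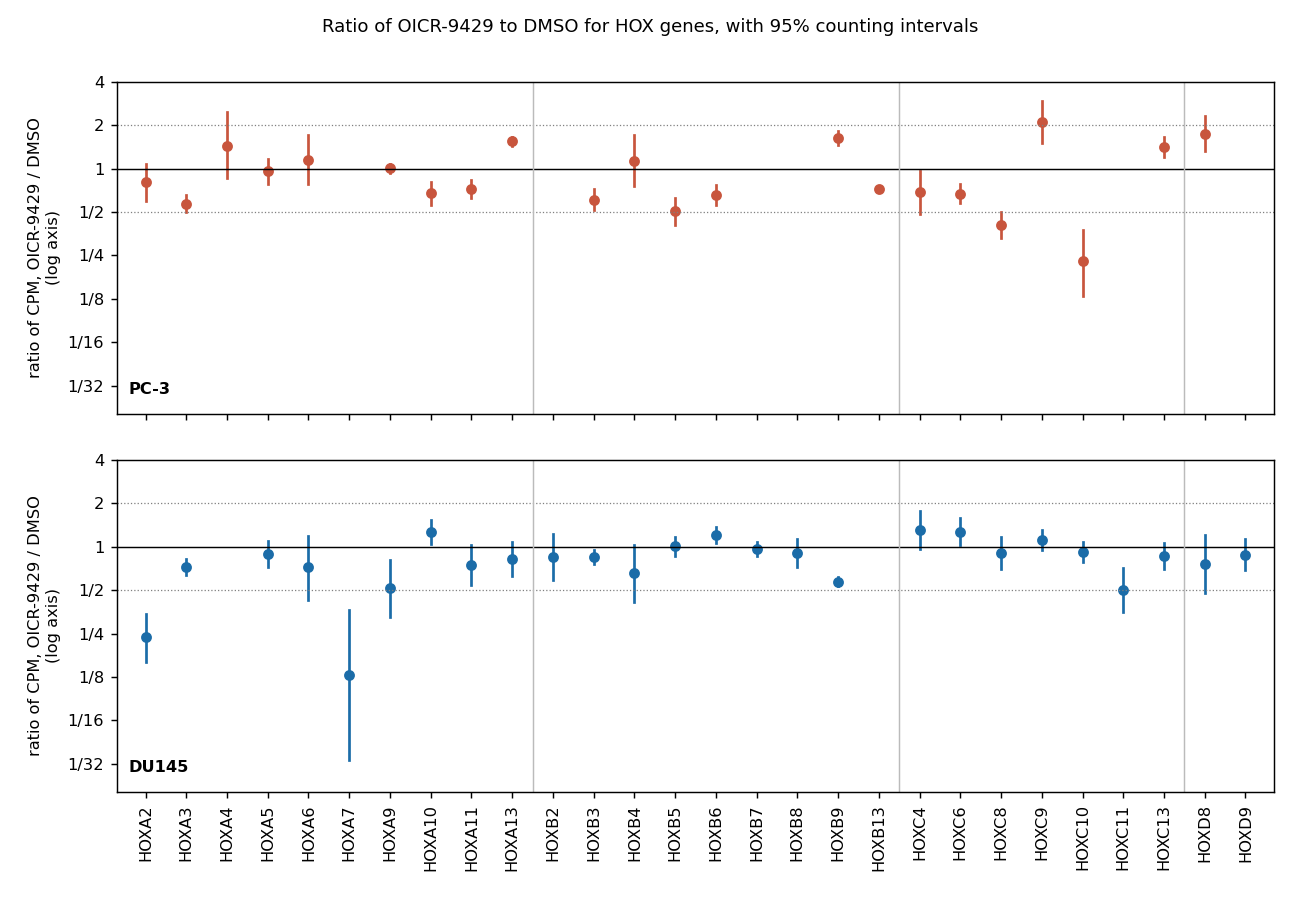
Ratio of OICR-9429 to DMSO for HOX genes at 1 CPM or more in a library of the line (1 gene not shown), PC-3 above and DU145 below, on a log axis, with exact 95% intervals that cover counting error only. HOXC10 (0.228) and HOXC8 (0.405) lie lowest in PC-3, and HOXA7 (0.129, from few fragments) and HOXA2 (0.236) in DU145.

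Smaller ratios whose intervals left 1 out were common in both lines, for HOX genes and for all genes. In PC-3, 11 of 23 HOX intervals lay below 1 and 5 above, beside 39.5% and 38.3% of all genes. In DU145, 7 of 27 HOX intervals lay below 1 and 4 above, beside 49.5% and 23.4% of all genes. The median HOX change in PC-3 was -0.30 on the log2(CPM + 1) scale, with 9 genes above and 14 below 0, beside -0.01 for all genes. The median HOX change in DU145 was -0.16, with 7 genes above and 20 below 0, beside -0.18 for all genes. On scalings that re-centre the libraries, DU145 values shifted up by 0.24 (median of ratios) or 0.19 (TMM), which put the DU145 HOX median at 0.04 or -0.01 and that of all genes at 0.06 or 0.01. Signs of small DU145 changes therefore depend on the scaling, and PC-3 shifted by 0.02 and 0.03 only.

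By cluster, the PC-3 changes had medians of -0.15 for 10 HOXA genes, -0.51 for 6 HOXB genes and -0.46 for 6 HOXC genes, with HOXD8 alone at 0.63. By position, the 4 anterior genes (1 to 3) in PC-3 were all lower with OICR-9429, with a median of -0.47. The 10 central genes (4 to 8) had a median of -0.22 and the 9 posterior genes (9 to 13) of 0.01. In DU145 the anterior, central and posterior medians were -0.23, -0.12 and -0.21, over 5, 12 and 10 genes.

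In PC-3 the HOXA and HOXB clusters each held genes with intervals on either side of 1. HOXA13 (69.1 CPM with OICR-9429, 44.6 CPM with DMSO) had a ratio of 1.55 (1.44 to 1.66), while HOXA9, at nearly the same level, had a ratio of 1.00 (0.931 to 1.08). HOXA3 had a ratio of 0.573 (0.501 to 0.654), HOXA10 of 0.674 (0.558 to 0.812) and HOXA11 of 0.725 (0.626 to 0.840). HOXA5, HOXA2, HOXA4 and HOXA6 had intervals that held 1. In HOXB, HOXB9 (28.7 CPM with OICR-9429, 17.6 CPM with DMSO) had a ratio of 1.63 (1.46 to 1.83). Below 1 stood HOXB13 at 0.724 (0.699 to 0.751), HOXB3 at 0.610 (0.517 to 0.718), HOXB5 at 0.507 (0.407 to 0.630) and HOXB6 at 0.653 (0.555 to 0.767).

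HOXC in PC-3 held ratios on either side of 1, with no order along the cluster. HOXC4, HOXC6, HOXC8 and HOXC10 were lower with OICR-9429, with ratios of 0.687 (0.485 to 0.967) for HOXC4 and 0.673 (0.579 to 0.780) for HOXC6. HOXC9, between HOXC8 and HOXC10, had a ratio of 2.11 (1.52 to 2.96), and HOXC13 of 1.41 (1.21 to 1.66). On the log2(CPM + 1) scale HOXC9 differed by 0.79, short of the 2-fold rule. HOXC11 had a ratio of 0.127 (0.024 to 0.415) at under 1 CPM in both libraries. In HOXD, HOXD8 had a ratio of 1.74 (1.32 to 2.30), and HOXD9 one of 9.49 (2.27 to 84.3) at 0.648 CPM with OICR-9429 and 0.068 CPM with DMSO, under 1 CPM in both.

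The intervals of 16 of 23 HOX genes in PC-3 and of 11 of 27 in DU145 left 1 out. In DU145, beside HOXA2, the genes with an interval below 1 were HOXA3 at 0.722 (0.636 to 0.819), HOXA7 at 0.129 (0.033 to 0.367), HOXA9 at 0.517 (0.326 to 0.807), HOXB3 at 0.845 (0.756 to 0.945), HOXB9 at 0.572 (0.533 to 0.615) and HOXC11 at 0.505 (0.353 to 0.715). Those above 1 included HOXA10, HOXB6 and HOXC6, with ratios of 1.21 to 1.28. HOXB7, the second gene per length in DU145, stood at 24.1 CPM with OICR-9429 and 24.9 CPM with DMSO.

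**Figure D4:**
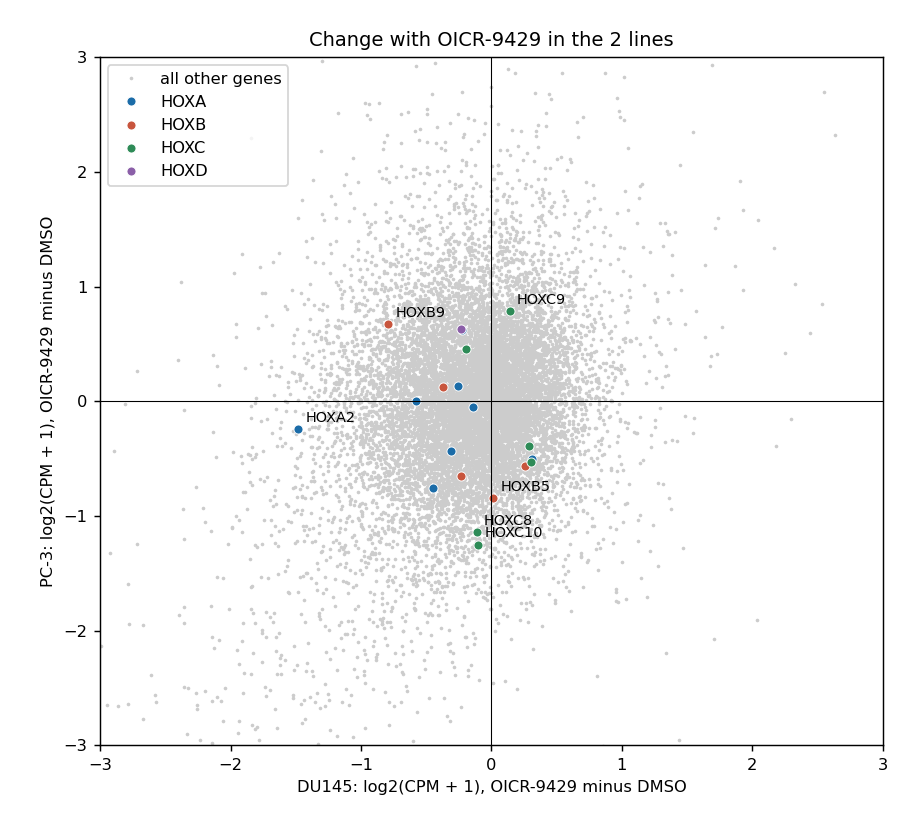
Change with OICR-9429 in PC-3 against the change in DU145, both as log2(CPM + 1) OICR-9429 minus DMSO, for 20 HOX genes at 1 CPM or more in both lines, coloured by cluster, with all other such genes in grey and 111 of 13565 genes outside the axes. HOXB9 lies high in PC-3 (0.68) and low in DU145 (-0.79), HOXC10 (-1.25) and HOXC8 (-1.14) lie lowest in PC-3, and HOXA2 (-1.48) lies farthest to the left.

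Changes shared by the lines were tested with the treatment term of the same limma fit, in which the difference between the lines' responses is the only residual. None of the 26 HOX genes passed at an adjusted p under 0.05, and none had an unadjusted p under 0.05. Over all tested genes 1.26% passed, 0.12% higher and 1.14% lower, and 8.88% had an unadjusted p under 0.05. edgeR's quasi-likelihood test on the recovered reads called none of the 26, with 1 under an unadjusted 0.05 (HOXC11), and DESeq2 and limma-voom called none, with none under an unadjusted 0.05. The estimates ran from -0.86 ± 0.43 for HOXA2 (limma, adjusted p = 0.613) to 0.46 ± 0.43 for HOXC9 (limma, adjusted p = 0.893). HOXC11 had the smallest adjusted p, 0.58, at -0.72 ± 0.34, and was lower with OICR-9429 in both lines. For this comparison, counts simulated with 100 genes at 2-fold gave 3 calls among those genes, and 100 genes at 4-fold gave 62, so changes of the sizes seen in HOX genes were mostly not detectable at 1 library a group.

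The clusters also carry noncoding genes, of which 18 of 24 on the list were listed. HOTTIP, transcribed from the HOXA13 end and known to bind WDR5, stood at 4.14 CPM with OICR-9429 and 8.22 CPM with DMSO in PC-3, against 0.035 CPM with OICR-9429 and 0.362 CPM with DMSO in DU145. Like HOXA13 beside it, HOTTIP was higher in PC-3 (log2 difference 2.53 ± 0.37, limma, adjusted p = 0.000199). Its ratio with OICR-9429 in PC-3 was 0.503 (0.399 to 0.631), while that of HOXA13 was 1.55. HOXA11-AS and HOXA10-AS were higher in PC-3 as well, by 1.64 ± 0.35 and 1.26 ± 0.35 (limma, adjusted p = 0.00331 and 0.0143). HAGLR, from the HOXD1 end, stood at 1.47 CPM with OICR-9429 and 3.31 CPM with DMSO in PC-3, against 20.6 CPM with OICR-9429 and 22.4 CPM with DMSO in DU145 (log2 difference -2.78 ± 0.44, limma, adjusted p = 0.000349).

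HOTAIR, from HOXC and known to bind Polycomb proteins, stood at 1.26 CPM with OICR-9429 and 1.74 CPM with DMSO in PC-3, against 2.11 CPM with OICR-9429 and 3.26 CPM with DMSO in DU145. HOTAIRM1, from the anterior end of HOXA, stood at 5.04 CPM with OICR-9429 and 2.87 CPM with DMSO in PC-3, a ratio of 1.76 (1.33 to 2.33), against 5.59 CPM with OICR-9429 and 5.84 CPM with DMSO in DU145. No noncoding gene was past 2-fold among 12 that could be called in PC-3 or 9 in DU145, beside 15.8% and 9.01% of all genes. For OICR-9429, limma called 0 of 14, with 0 under an unadjusted p of 0.05, beside 1.26% and 8.88% of all genes. HOXB-AS1 had one of the larger mean changes, at 0.288 CPM with OICR-9429 and 0.989 CPM with DMSO in PC-3, against 1.13 CPM with OICR-9429 and 1.23 CPM with DMSO in DU145.

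**Figure D5:**
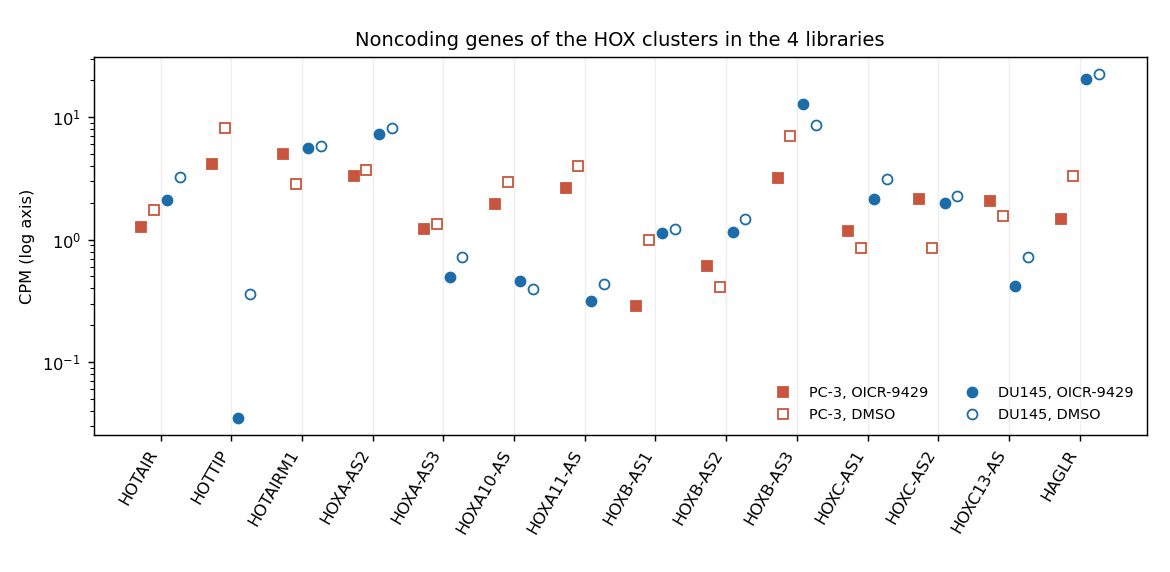
Level of 14 noncoding HOX cluster genes in the 4 libraries, in CPM on a log axis, squares for PC-3 and circles for DU145, filled for OICR-9429 and open for DMSO. HOTTIP (4.14 and 8.22 CPM in PC-3) lies apart from its DU145 values, and HAGLR (20.6 and 22.4 CPM in DU145) apart from its PC-3 values.

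Some of these levels share reads that the files cannot assign. No source used here says whether the authors counted by strand, and in GENCODE 29 the exons of HOXA7 overlap genes of the other strand over 62.5% of their length, those of HOXD1 over 58.1%, HOXA6 over 39.3% and HOXA11 over 31.1%. On the same strand, 62.2% of HOXD3 exons, 59.9% of HOXC5 exons and 31.0% of HOXA4 exons overlap another gene. HOXB7, HOXB8, HOXB9, HOXB13, HOXC8, HOXC11, HOXD8 and HOXD9 overlap none. The paralogs themselves are distinct at this read length. Among 741 pairs of HOX coding sequences the longest shared run was 62 bases, between HOXB3 and HOXD3, and 0 pairs shared 100 bases.

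Genes that flank the clusters were read for comparison, and 17 of 18 were listed. In PC-3, 1 of 13 was past 2-fold, where 15.8% of all genes were. That was ATF7 beside HOXC, at 44.4 CPM with OICR-9429 and 20.3 CPM with DMSO. In DU145, 2 of 14 were past 2-fold, both lower, where 8.01% of all genes were lower. NFE2 stood at 0.879 CPM with OICR-9429 and 3.55 CPM with DMSO, and TTLL6 had 0 fragments with OICR-9429 and 71 with DMSO, at least 24.4-fold lower against a floor of 3 fragments. SKAP2, which flanks HOXA, stood at 76.8 CPM with OICR-9429 and 48.5 CPM with DMSO in PC-3, against 135 CPM with OICR-9429 and 80.5 CPM with DMSO in DU145. SKAP1, next to HOXB1, was lower in PC-3 by a log2 difference of -3.37 ± 0.40 (limma, adjusted p = 3.38e-05). For OICR-9429, limma called 0 of 13 flanking genes, with 2 under an unadjusted p of 0.05, beside 1.26% and 8.88% of all genes.

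TALE homeodomain proteins (PBX, MEIS, PKNOX) bind DNA together with HOX proteins, and 8 of 9 were listed. With OICR-9429, 1 of 8 was past 2-fold in DU145 and 0 of 7 in PC-3, beside 9.01% and 15.8% of all genes. The gene in DU145 was PBX4, at 3.80 CPM with OICR-9429 and 8.92 CPM with DMSO. Between lines, PBX3 (-2.05 ± 0.35) and MEIS3 (-2.43 ± 0.40) were lower in PC-3 (limma, adjusted p = 0.000665 and 0.000516). The 9 MLL complex genes and partners were all listed. None was past 2-fold in PC-3 or DU145, beside 15.8% and 9.01% of all genes. WDR5, the protein that OICR-9429 binds, stood at 37.6 CPM with OICR-9429 and 62.2 CPM with DMSO in PC-3, against 83.5 CPM with OICR-9429 and 88.8 CPM with DMSO in DU145. KMT2A, which encodes MLL1, stood at 217 CPM with OICR-9429 and 166 CPM with DMSO in PC-3, against 191 CPM with OICR-9429 and 159 CPM with DMSO in DU145.

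All 22 Polycomb genes were listed. In PC-3, 3 of 22 were past 2-fold higher, EZH1 and PHF1 among them, beside 7.15% of all genes. Lower were 2 of 22 (EZH2, PHF19), beside 8.68% of all genes. EZH2, the main H3K27 methyltransferase of dividing cells, stood at 29.4 CPM with OICR-9429 and 76.7 CPM with DMSO in PC-3, and EZH1, its counterpart in resting cells, at 45.8 CPM with OICR-9429 and 15.4 CPM with DMSO. In DU145, 1 of 22 was past 2-fold, beside 9.01% of all genes. That was CBX2, at 2.14 CPM with OICR-9429 and 5.36 CPM with DMSO. EZH2 stood at 60.7 CPM with OICR-9429 and 69.2 CPM with DMSO in DU145. For OICR-9429 across lines limma called 0 of 22, with 2 under an unadjusted p of 0.05, beside 1.26% and 8.88% of all genes. The part of the Polycomb genes in the HOX values was not tested.

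Retinoic acid switches on anterior HOX genes in the embryo, and 14 of 16 genes of its pathway were listed. In PC-3, 3 of 9 were past 2-fold, beside 15.8% of all genes. RDH10, which makes retinal from retinol, stood at 883 CPM with OICR-9429 and 89.0 CPM with DMSO. CRABP2, a carrier of retinoic acid, stood at 8.02 CPM with OICR-9429 and 72.2 CPM with DMSO, and CYP26B1, an enzyme that breaks it down, at 1.65 CPM with OICR-9429 and 8.36 CPM with DMSO. In DU145, 1 of 10 was past 2-fold, beside 9.01% of all genes. That was CYP26A1, at 0.633 CPM with OICR-9429 and 3.52 CPM with DMSO. Across lines limma called 0 of 9 for OICR-9429, with 3 under an unadjusted p of 0.05, beside 1.26% and 8.88% of all genes. Of the ParaHox and CDX genes, relatives of HOX outside the clusters, CDX1 and PDX1 were listed, in DU145 alone and under 1 CPM.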

How the data were processed

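Total RNA of 4 libraries was sequenced, 1 per line and treatment. Per the submitters' processing notes, the tools were HISAT2 2.1.0, HTSeq 0.6.1 and bcl2fastq 2.19.1, with build hg19; the annotation, the strand setting and any filter are not stated there. The deposited values are CPM, which per the file headers were normalized by the authors. From the steps of the low values, 99.99% to 100% of values came out as whole reads (within 0.01 of a step), with 2 reads per fragment. Values of exactly 1 step were taken as 0.

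Current gene symbols named 27302 of the 27658 identifiers, and GENCODE 29 symbols named 191 more. Exon lengths came from GENCODE 29, and promoter windows from RefSeq (GRCh38.p14). No coordinate was converted. Changes within a line are differences of log2(CPM + 1), called past 2-fold with at least 1 CPM in the higher library. limma 3.58.1 (R 4.3.3, trend, 12.72 prior degrees of freedom) was fitted on line and treatment over all 14976 genes above 1 CPM in at least 2 libraries, with Benjamini-Hochberg adjustment over all of them. edgeR 4.0.16 and DESeq2 1.42.0 on the recovered counts were alternatives, with other scalings, pseudocounts and minimums. In simulated counts the treatment test gave 8 false calls, beside 3 true calls at 2-fold and 62 at 4-fold. The HOX genes and the other gene lists were chosen with earlier results of these data known. Every HOX gene was counted, with all values given for those at 1 CPM or more; a few genes, 1 of them a HOX gene, enter the counts and are not reported here; of the other lists, HOTAIR, HOTTIP, HOTAIRM1, genes past 2-fold or past the test between lines, and up to 4 genes with the largest mean change are named, and a few others for their known role or their place beside a cluster.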

Additional observations from a re-analysis of the deposited data

Results flagged for a closer look

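For 4 HOX genes the OICR-9429 to DMSO ratio had a 95% counting interval above 1 in one line and below 1 in the other. HOXB9 differed most between the lines' changes, by 1.47 (PC-3 minus DU145, log2(CPM + 1)), at 0.68 in PC-3 and -0.79 in DU145. HOXA10 differed by -0.82 (-0.51 in PC-3, 0.31 in DU145), HOXB6 by -0.82 (-0.56 in PC-3, 0.26 in DU145) and HOXC6 by -0.84 (-0.53 in PC-3, 0.30 in DU145). All 4 kept both signs after median-of-ratios and TMM scaling. With 1 library a group the difference between lines was not tested, and dose and medium differed with the line. Such opposite intervals were found in 4 of 21 HOX genes, and in 26% of 13566 genes overall.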

How the results depend on the processing

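With a pseudocount of 0.1, the HOX genes past 2-fold in DU145 numbered 2 (HOXA2 and HOXA7) instead of 1, and those in PC-3 3 instead of 2, HOXC9 being added as higher. With at least 5 CPM asked of the higher library, PC-3 kept 1 (HOXC8). The count across both lines was 0 under all 10 alternatives, and the count of HOX genes different between lines ran from 9 to 14, against 12. HOXB9 lost its call between lines under median-of-ratios scaling, edgeR, DESeq2 and without the treatment term, HOXB2 under DESeq2 and HOXC11 without the treatment term. With genes not listed entered as 0, HOXB13 was higher in PC-3 by 7.75 on the log2(CPM + 1) scale. Both of its DU145 values are imputed there, so this is no test of HOXB13. Scaling turned signs of small DU145 changes, such as HOXB7 (-0.05 as deposited, 0.19 by median of ratios). Over all genes, median-of-ratios scaling moved the split past 2-fold in DU145 from 161 higher and 1291 lower to 327 and 764, and DESeq2 called 59 higher and 242 lower for the treatment, against 18 and 171. The line term already pairs the OICR-9429 and DMSO libraries of each line, and without it 0 HOX genes passed as well. No replicate block could be fitted and no replicate left out, because each group is 1 library. Genes under 1 CPM rest on few fragments.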
